A study of Caenorhabditis elegans with 3 samples.

Results

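The *lbp* genes of *Caenorhabditis elegans* encode lipid binding proteins of the fatty acid binding protein family. Their members were taken by gene symbol, as the probes whose only symbol in the array platform's annotation was one of *lbp-1* to *lbp-9*. Of the 9 genes, 8 had such a probe, 1 each, and all 8 gave a value on every array, among 19075 tested features. *lbp-9* had none and was not analysed here. No single member was chosen by its measured value, although earlier results of these data were known when the members were chosen.

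RNA of mid-L3 hermaphrodites was hybridised on 3 two-colour arrays, 1 for each of 3 preps (preps 1, 2 and 3), and the other channel of every array held RNA of a mixed wild-type reference. The larvae carry the code TP01 in the labels, whose meaning is not given there, and no mutation or treatment is named for them. What went into the reference is not stated, so its stages and its sexes are unknown. L3 is the stage before the last larval stage, and the animals were measured whole, so a difference in the RNA of a tissue and a difference in the number of its cells cannot be told apart in any value below.

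Fatty acid binding proteins are small barrel-shaped proteins that hold a fatty acid in an internal pocket and keep it soluble. Inside cells they carry fatty acids between membranes, storage droplets, mitochondria, peroxisomes and the nucleus, where some hand their ligand to nuclear hormone receptors. Nematodes also make secreted forms. LBP-1, LBP-2 and LBP-3 carry a signal peptide for secretion and resemble a protein of the fluid around *Ascaris* embryos, whereas LBP-5, LBP-6, LBP-7 and LBP-8 are intracellular forms. LBP-8 is best known as a carrier that moves a lipid signal from intestinal lysosomes to the nucleus.

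The *lbp* genes did not move as a block. *lbp-5*, *lbp-6* and *lbp-7* had positive ratios, *lbp-1* and *lbp-2* negative ones, and *lbp-3*, *lbp-4* and *lbp-8* did not pass the test in either direction. The ends of the family, *lbp-7* and *lbp-1*, lay 3.39 log2 units apart, a 10.5-fold difference between their ratios. All values are log2 ratios as the authors deposited them, after each array was centred on its median, and the mean of the 3 preps was tested against 0 with limma over all features. A feature was called at a Benjamini-Hochberg adjusted p under 0.05. Which channel is the numerator is not stated in the sources used here: a positive sign is the sign as deposited, and turning the ratio would turn every sign below and leave every size and count.

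Of all 19075 features, 13.5% were positive and 13.6% negative past the threshold, 27.1% in all. Of the 8 measured *lbp* genes, 3 were positive and 2 negative. Their median was 0.32, against 0.0098 for all features, and 6 of the 8 had 1 sign on all 3 arrays, as did 54.6% of all features. The errors given below are the SD over the 3 preps (n = 3). The labels do not say whether the preps came from separate cultures, so the p-values measure the spread between these preps, which may be technical, and leave out the spread of the reference. The median SD was 0.27 for the *lbp* genes and 0.29 for all features.

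**Figure D1:**
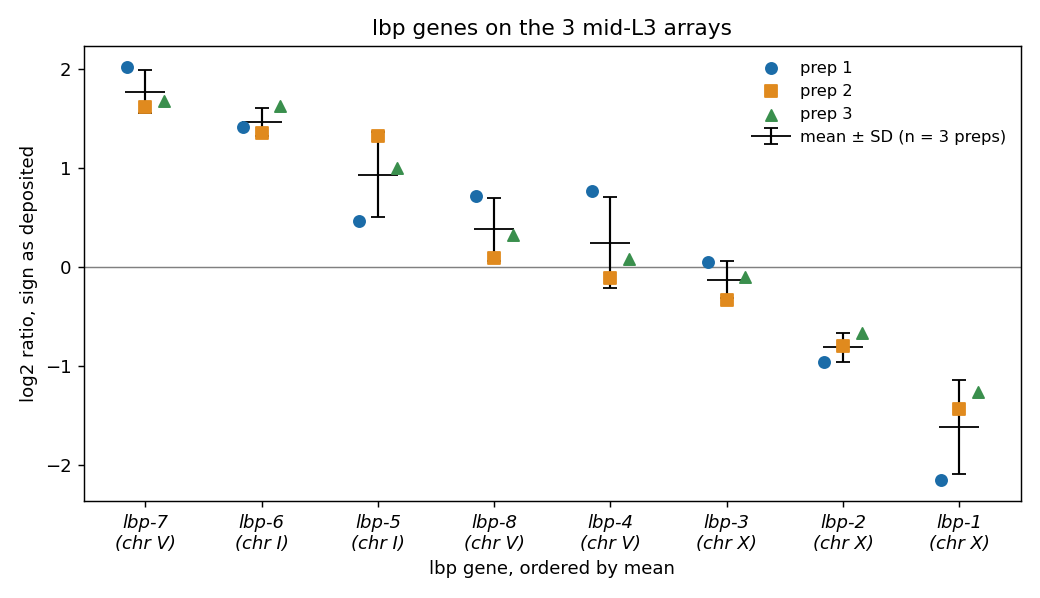
Log2 ratio (vertical axis, sign as deposited, array medians at 0) of each measured lbp gene, ordered by its mean, with 1 symbol per prep and the mean ± SD over 3 preps as black bars. The points of lbp-7 and lbp-6 all lie above 1.3, those of lbp-1 and lbp-2 all lie below 0, and those of lbp-3 and lbp-4 lie on both sides of 0.

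The 3 genes for secreted forms were the lowest of the family. *lbp-1* had log2 ratios of -2.15, -1.44 and -1.26 in preps 1, 2 and 3. Its mean of -1.62 ± 0.47 was a 3.06-fold difference and was called negative (limma, adjusted p = 0.0001985). All 3 preps lay below 0, and prep 1 lay farthest from it. Only 2.72% of features had a lower mean than *lbp-1*.

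*lbp-2* gave -0.96, -0.80 and -0.67 in preps 1, 2 and 3. Its mean of -0.81 ± 0.15, a 1.75-fold difference, was called negative (limma, adjusted p = 0.006567), and the preps lay close together. Without prep 1 its mean was -0.73 and no longer passed (limma, adjusted p = 0.05483). *lbp-3*, whose product is known as a secreted carrier that takes a fatty acid signal from the fat storage tissue to neurons, gave 0.05, -0.33 and -0.10. Its preps lay on both sides of 0, and its mean of -0.13 ± 0.19 did not pass (limma, adjusted p = 0.69). The 95% confidence interval of that mean ran from -0.53 to 0.28, so a difference of either sign within these bounds was not excluded.

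Among the genes for intracellular forms, 3 were positive past the threshold. *lbp-7* had the highest ratio of the family, with 2.02, 1.62 and 1.67 in preps 1, 2 and 3. Its mean of 1.77 ± 0.22 was a 3.42-fold difference (limma, adjusted p = 4.164e-05), and 98.3% of features had a lower mean. It was also the 1 member that passed a test against a minimum of 1 log2 unit, at an adjusted p of 0.02522 in limma's treat.

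*lbp-6* gave 1.41, 1.36 and 1.63 in preps 1, 2 and 3, all well above 0. Its mean of 1.46 ± 0.14 was a 2.76-fold difference (limma, adjusted p = 0.0001324), with the smallest SD of the family. *lbp-5*, whose product is known to bind fatty acids and to affect fat storage, gave 0.47, 1.32 and 1.00. Its 3 values were positive but uneven, with prep 1 lowest, and the mean of 0.93 ± 0.43 was a 1.91-fold difference (limma, adjusted p = 0.005986). Without prep 2, its highest, the mean was 0.74 and did not pass (limma, adjusted p = 0.05524).

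*lbp-8* and *lbp-4* lay close to 0. *lbp-8* gave 0.72, 0.09 and 0.33 in preps 1, 2 and 3, positive each time, with a mean of 0.38 ± 0.32 that did not pass (limma, adjusted p = 0.1868). Its 95% confidence interval ran from -0.05 to 0.81. *lbp-4* gave 0.77, -0.11 and 0.08, and its mean of 0.25 ± 0.46 did not pass either (limma, adjusted p = 0.4525), with an interval from -0.22 to 0.71. Its distance from 0 rested on prep 1: without that prep the mean was -0.0115.

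**Figure D2:**
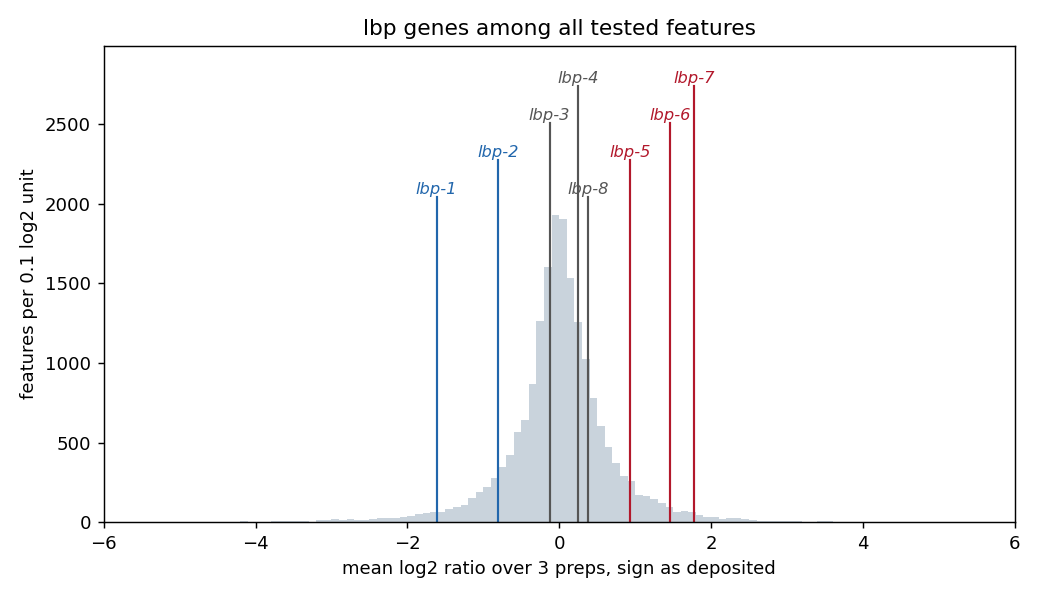
Histogram of the mean log2 ratio of all 19075 tested features (bars of 0.1 log2 unit, sign as deposited), with a vertical line at the mean of each measured lbp gene, red where positive and blue where negative past the threshold and grey where neither; line heights are set for the labels only. lbp-7 and lbp-1 lie in the right and left tails, and lbp-3, lbp-4 and lbp-8 in the central mass.

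From high to low the order of the means was *lbp-7*, *lbp-6*, *lbp-5*, *lbp-8*, *lbp-4*, *lbp-3*, *lbp-2* and *lbp-1*. Each gene has its own probe, so the order is one of ratios against the same reference and not of RNA levels. Sequence identity between the members was not computed. Whether RNA of one member also bound the probe of another was therefore not tested. Of the 7 pairs of neighbours in this order, 3 had ranges over the preps that did not overlap, namely *lbp-6* above *lbp-5*, *lbp-3* above *lbp-2* and *lbp-2* above *lbp-1*. The gap between *lbp-6* and *lbp-5* was narrow, 0.03 in prep 2, and after centring on the local median *lbp-5* was the higher in that prep, at 1.47 against 1.38, so that their ranges overlapped. *lbp-7* exceeded *lbp-6* on 3 of 3 arrays, but by 0.05 in prep 3 and 0.61 in prep 1, and their ranges overlapped. *lbp-8* and *lbp-4* could not be put in order, with a mean difference of 0.13 ± 0.16 that was below 0 in prep 1. *lbp-5* was above *lbp-8* on 2 of 3 arrays, and *lbp-4* above *lbp-3* on all 3, with overlapping ranges in both cases. The order is a description, since an exact sign test on 3 arrays cannot give a two-sided p below 0.25.

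Among all 28 pairs of members, 23 had ranges that did not overlap. These pairs share the same 8 genes, and the share among pairs of other features was not computed. The count therefore says nothing particular about the family. The secreted forms *lbp-1* and *lbp-2* lay below every one of *lbp-4* to *lbp-8* in each prep. The gap between *lbp-6* and *lbp-2* was 2.37, 2.16 and 2.29 in preps 1, 2 and 3. Its SD of 0.109 was about that of the gap between *lbp-7* and *lbp-3*. After centring on the local median it narrowed from prep 1 to prep 3. There *lbp-6* gave 1.49, 1.38 and 1.33, and *lbp-2* gave -1.01, -0.73 and -0.61. On the main centring, the gap between *lbp-7* and *lbp-1* was 4.18 in prep 1 and 3.05 and 2.93 in preps 2 and 3.

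The preps shifted the family unevenly. Over the 8 genes, the medians were 0.60, -0.0058 and 0.21 in preps 1, 2 and 3, while the median of all probes was set to 0 on each array. Prep 1 was the highest of the 3 for *lbp-7*, *lbp-8*, *lbp-4* and *lbp-3*, and the lowest for *lbp-5*, *lbp-2* and *lbp-1*. Prep 2 was the lowest for 5 of the 8 genes and the highest for *lbp-5* alone. Prep 1 held the widest spread of the family, from -2.15 to 2.02, against -1.44 to 1.62 in prep 2 and -1.26 to 1.67 in prep 3.

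The medians of the spots around a probe also differed between preps, where neighbouring rows of the table are taken as neighbouring spots. The probes of *lbp-7* and *lbp-8* lay in the same sector of 25 by 25 probes, whose median was 0.26 in prep 1, -0.05 in prep 2 and -0.16 in prep 3. The sector of *lbp-5* and *lbp-6* had medians of -0.14, 0.31 and 0.19, in the same order of preps as *lbp-5* but not as *lbp-6*, which was lowest in prep 2. The sector of *lbp-4* stood at 0.39 in prep 1, where *lbp-4* was high too.

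After each spot was centred on the local median of 11 by 11 spots, the preps lay closer together for *lbp-7*, *lbp-6*, *lbp-3* and *lbp-4*. *lbp-7* then gave 1.68, 1.77 and 1.81 in preps 1, 2 and 3, a mean of 1.75 ± 0.07. *lbp-6* gave 1.49, 1.38 and 1.33, a mean of 1.398 ± 0.08, and *lbp-3* stood at -0.03 ± 0.08. *lbp-5* kept its spread, at 0.98 ± 0.43, and so did *lbp-1*, at -1.63 ± 0.52. *lbp-4* moved to 0.08 ± 0.26, *lbp-8* stood at 0.33 ± 0.29 and *lbp-2*, whose SD was larger here, at -0.78 ± 0.20. The 5 called genes were called in the same direction under this centring.

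The members lie in 3 groups on the chromosomes and 1 stands alone, by the RefSeq gene table of assembly WBcel235. *lbp-3*, *lbp-1* and *lbp-2* are directly adjacent on chromosome X with 0 protein-coding genes between them. *lbp-6* and *lbp-5* lie on chromosome I on either side of 1 gene, *ant-1.2*. *lbp-7* and *lbp-8* lie on chromosome V with 3 genes between them, and *lbp-4* lies elsewhere on V. Both genes on chromosome I were called positive and differed by 0.94, 0.03 and 0.62 in preps 1, 2 and 3. Within the X group *lbp-1* and *lbp-2* were both called negative and *lbp-3* was not called. On V *lbp-7* was called and *lbp-8* was not, and *lbp-7* exceeded *lbp-8* by 1.303, 1.524 and 1.346 in preps 1, 2 and 3.

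The signs of the X group are set beside those of its chromosome as a description only. Over the 2259 measured X genes the median was 0.06, and 17.04% were positive and 9.65% negative past the threshold, whereas of the 3 *lbp* genes on X 2 were negative and 0 positive. On chromosome I, where both *lbp* genes were positive, 12.68% of 2035 genes were positive and 20.39% negative.

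The nearest measured genes on either side of the members were 11 genes other than *lbp* genes, of which 1 was positive, 1 negative and 9 neither, with a median of -0.10. With 27.1% of all features called, this count says nothing particular about the neighbours. The negative gene was *fbxb-71*, next to *lbp-2*, at -0.99, -0.89 and -0.76 in preps 1, 2 and 3, a mean of -0.88 ± 0.12 (limma, adjusted p = 0.003843). The positive gene was *mig-6*, a gene for the extracellular matrix protein papilin, beside *lbp-4*, at 1.67 ± 0.09 (limma, adjusted p = 4.835e-05). On the other side of the X group, the tubulin gene *tba-9* beside *lbp-3* was at 0.23 ± 0.11 and did not pass (limma, adjusted p = 0.4243).

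Between *lbp-6* and *lbp-5*, the gene *ant-1.2*, which encodes an adenine nucleotide translocase, gave -0.14, 1.16 and 0.07 in preps 1, 2 and 3. Its mean of 0.37 ± 0.70 did not pass (limma, adjusted p = 0.3274). In prep 2 it stood close below *lbp-5* at 1.32 and *lbp-6* at 1.36, while in preps 1 and 3 it lay below both by more. The genes beside *lbp-7*, *T22G5.1* at -0.11 ± 0.53 and *T22G5.3* at 0.20 ± 0.37, did not pass, and both lay below *lbp-7* in every prep.

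**Figure D3:**
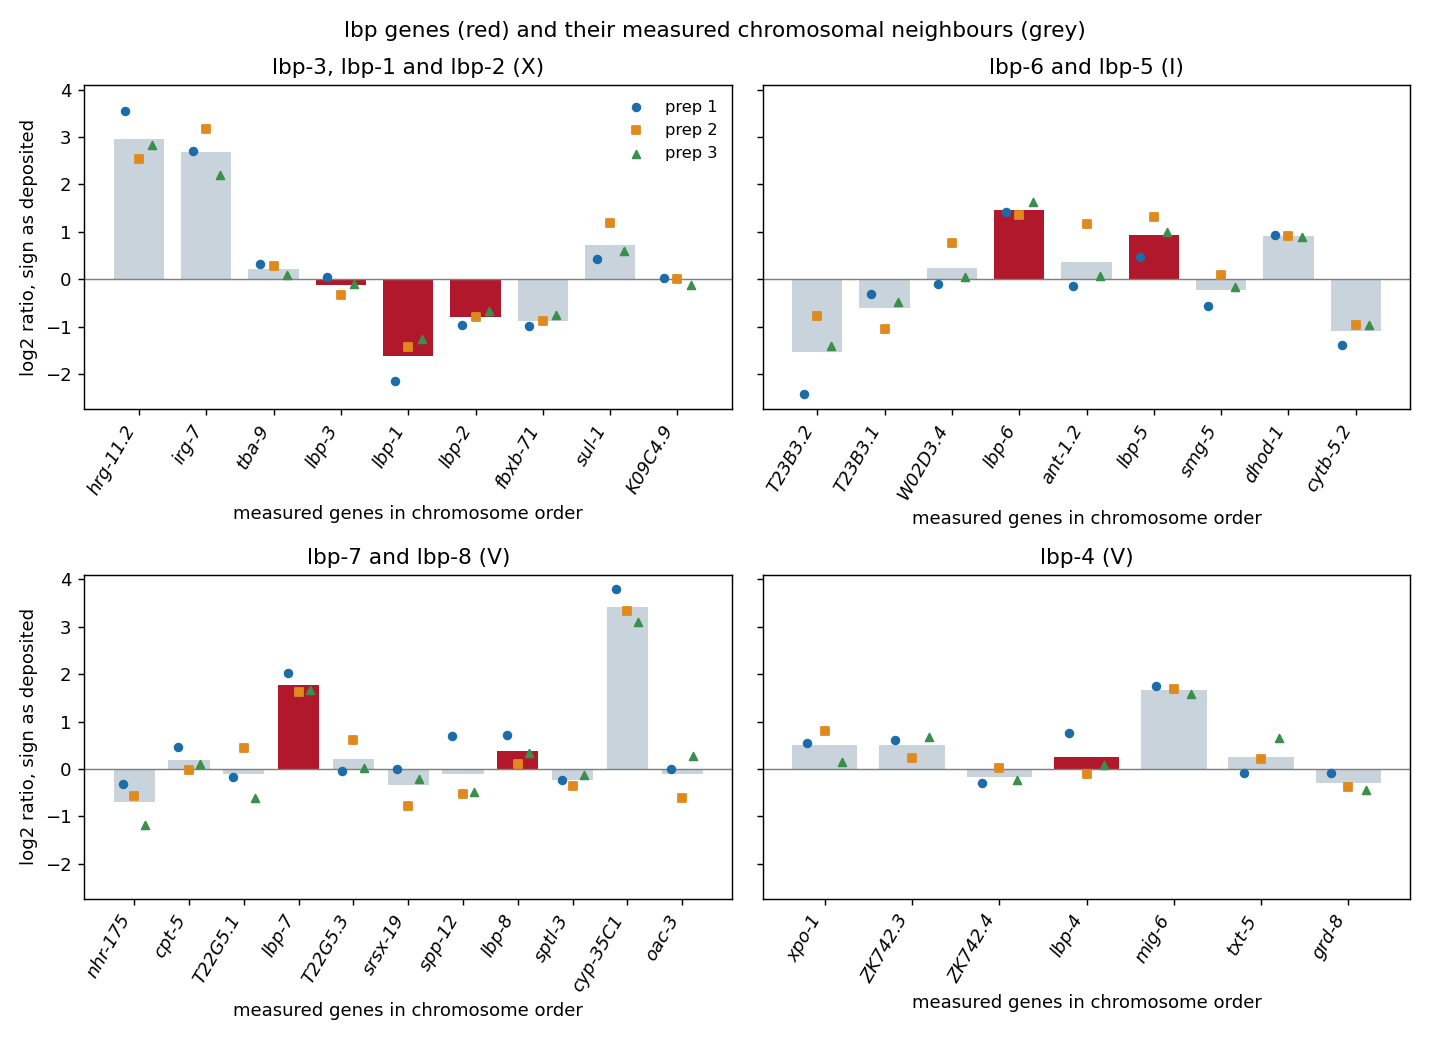
Log2 ratios (vertical axes, sign as deposited) of the lbp genes (red bars, means of 3 preps) and of the 3 nearest measured genes on either side, with those in between (grey bars), in chromosome order; symbols are the 3 preps. In the X panel lbp-1 and lbp-2 are negative beside fbxb-71, and in the upper right panel ant-1.2 lies below lbp-6 and lbp-5 in mean.

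The genes most like the ends of the family were found by Euclidean distance over the 3 log2 ratios, among named genes outside the family. For *lbp-7* they were *T23E7.2* at a distance of 0.14, the transketolase gene *tkt-1* at 0.17 and *C12D12.1* at 0.19. For *lbp-1* they were *prel-1* at 0.16, the collagen gene *col-72* at 0.16 and *Y73F4A.3* at 0.21. Within a distance of 0.25 lay 10 named genes for *lbp-7* and 7 for *lbp-1*. With 3 arrays such a likeness is a closeness of 3 numbers and no more.

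The known partners of LBP-8 were read beside it. *lipl-4*, the lysosomal acid lipase gene that acts before LBP-8, gave -0.41, -0.51 and -0.77 in preps 1, 2 and 3. Its mean of -0.56 ± 0.19 passed narrowly (limma, adjusted p = 0.0429) and did not pass when any 1 prep was left out, with adjusted p from 0.07672 to 0.3414. All 3 of its values were negative, while those of *lbp-8* were all positive.

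*nhr-49*, the nuclear hormone receptor gene that controls many genes of fat breakdown, was at -0.09 ± 0.16 and did not pass (limma, adjusted p = 0.7823). *nhr-80*, for a second receptor of that pathway, gave 0.84, 0.71 and 1.27. Its mean of 0.94 ± 0.29 passed (limma, adjusted p = 0.003635). It did not pass without prep 3 (0.78, adjusted p = 0.05419), nor after centring on the local median (0.65, adjusted p = 0.08544).

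Among genes that take up or bind fatty acids, ratios of both signs were found, as they were over all features, with 13.5% positive and 13.6% negative. Of 8 measured *far* genes, for fatty acid and retinol binding proteins that are secreted by nematodes, 2 were positive and 2 negative, with a median of -0.36. With any 1 prep left out, 1 was positive. *far-7* was at -3.21 ± 0.71, a 9.22-fold difference (limma, adjusted p = 4.724e-06), and *far-3* at -2.15 ± 0.69 (limma, adjusted p = 6.915e-05). The highest was *far-1* at 1.23 ± 0.79 (limma, adjusted p = 0.004621). Of 25 genes for acyl-CoA synthetases, which activate fatty acids, and acyl-CoA binding proteins, 8 were positive and 3 negative, with a median of 0.04. Leaving out prep 1 left 4 positive genes, and leaving out prep 2 left 5. The lowest was *acs-2*, a synthetase gene known as a target of NHR-49, at -3.68 ± 0.81, a 12.8-fold difference (limma, adjusted p = 2.964e-06), followed by *acs-11* at -2.01 ± 0.85 (limma, adjusted p = 0.0002536). The highest of these genes was *acs-5* at 1.98 ± 0.20 (limma, adjusted p = 1.754e-05).

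Genes listed under beta-oxidation leaned to positive ratios. Whether each listed gene acts on fatty acids rather than on other acyl-CoAs was not checked. Of 17 genes listed under peroxisomal beta-oxidation 13 were positive and 0 negative, with a median of 1.64, beside 13.5% positive among all features. That list also holds *prx* and *pmp* genes, for peroxisome assembly and transport. Among the 13 positive genes were *pmp-1*, *pmp-2*, *pmp-4* and *pmp-5*. The acyl-CoA oxidase gene *acox-1.2* was at 3.63 ± 1.17 (limma, adjusted p = 1.569e-05) and *dhs-28*, for a dehydrogenase of side chain shortening, at 2.09 ± 0.72 (limma, adjusted p = 9.841e-05). Of 27 genes listed under mitochondrial beta-oxidation 11 were positive and 1 negative, with a median of 0.50. The acyl-CoA dehydrogenase gene *acdh-1* was at 3.68 ± 0.44 (limma, adjusted p = 5.962e-07) and the hydratase gene *ech-6* at 2.37 ± 0.39 (limma, adjusted p = 9.181e-06). The called *lbp* genes for intracellular forms had that sign too, as did the called markers of body wall muscle, intestine and epidermis given below. A link between *lbp* genes and the listed beta-oxidation genes was not tested.

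Genes of synthesis, storage and lipases went both ways, beside 13.5% positive and 13.6% negative among all features. Of 15 genes of fatty acid synthesis, desaturation and elongation 3 were positive and 6 negative (3 negative without prep 3), from *fasn-1*, the fatty acid synthase gene, at 2.71 ± 0.55 to the desaturase gene *fat-3* at -3.07 ± 0.03. Of 14 storage and release genes 3 were positive and 3 negative. The positive ones numbered 1 without prep 2 and the negative ones 1 without prep 3, and the extremes were *dgat-2*, an acyltransferase gene of triglyceride synthesis, at 1.28 ± 0.42 and the lipase cofactor gene *lid-1* at -1.15 ± 0.22. Of 6 *lipl* lipase genes 1 was positive, *lipl-5* at 1.82 ± 0.70, and 4 were negative, among them *lipl-2* at -1.34 ± 0.16. The negative ones numbered 2 without prep 2 and 1 without prep 3.

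Of 15 nuclear regulators 2 were positive, *nhr-80* and *nhr-68* at 0.95 ± 0.44, and 1 was negative, a positive share of 13.3% beside 13.5% of all features. The counts were 1 positive without prep 3, and 0 negative in limma without prep 2 or without prep 3. Of 6 yolk and lipoprotein transport genes 1 was positive, *dsc-4* at 2.38 ± 0.18. The 2 negative ones were *vit-2* at -5.51 ± 0.78 and the yolk receptor gene *rme-2* at -2.86 ± 0.14. The other measured *vit* genes did not go with *vit-2*: *vit-5* at 0.52 ± 0.68 and *vit-6* at 0.14 ± 0.41 did not pass (limma, adjusted p = 0.1476 and 0.6794). Over all 133 measured genes of these 9 lists, 44 were positive, 22 negative and 67 neither, with a median of 0.16. Those shares were 33.1% positive and 16.5% negative, beside 13.5% and 13.6% of all features.

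**Figure D4:**
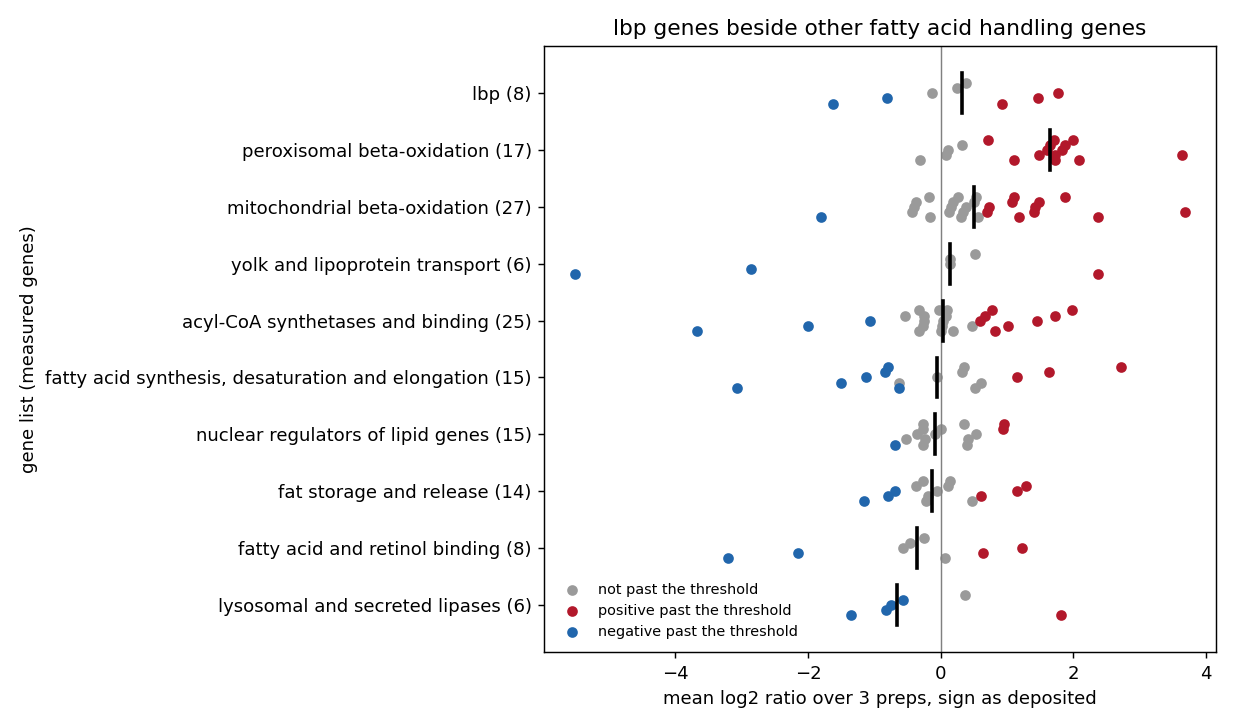
Mean log2 ratio over 3 preps (horizontal axis, sign as deposited) of each measured gene, for the lbp family and 9 lists of other fatty acid handling genes, with the number measured in brackets and a black bar at the list's median; points are spread vertically only for legibility. The lbp genes lie on both sides of 0, and the peroxisomal list has 13 of 17 genes positive past the threshold.

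Markers of tissues also differed between the larvae and the reference. Over all features, 13.5% were positive and 13.6% negative past the threshold. Of 10 oocyte and eggshell markers 9 were negative, with medians between -3.56 and -2.91 in the preps, and of 10 sperm markers 9 were negative, while mid-L3 animals hold neither mature sperm nor oocytes. Most of the sperm markers were *msp* genes of a single family, so their probes may not be independent measures. Of the markers of tissues that mid-L3 larvae hold, 7 of 9 for body wall muscle, 7 of 10 for intestine and 5 of 8 for epidermis were positive and 0 negative. Of 10 neuronal markers 2 were negative and 0 positive. The part of tissue make-up in the *lbp* ratios was not tested, and as the table holds ratios only, no marker could be read as absent. Pearson correlations between arrays were 0.739 for preps 1 and 2, 0.76 for preps 2 and 3 and 0.81 for preps 1 and 3. All were positive, so no array ran against the others in sign as a whole.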

How the data were processed

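The authors deposited a table of log2 ratios with a value for each probe and array, per the file headers and the values. The sources used here give neither the numerator and dyes nor the scanner and normalization. Base 2 was inferred from the values, since back-transformed ratios were whole thousandths (within 0.001 of one) for 97.0% to 98.3% of values per array. The deposited medians were 0.0272, -0.0664 and 0.0328 in preps 1, 2 and 3, and how the authors centred the arrays is unknown. Intensities, backgrounds and flags were not used, so dim probes are not marked, and the number of arrays limits the precision.

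Of 20000 probes 15655 had 1 symbol in the platform annotation, 198 several and 4147 none listed. Symbols were updated through Entrez identifiers (15569 matched) with the RefSeq table of WBcel235. Each array was centred on its median over all probes. Probes with values on all 3 arrays (19512) were averaged per gene, which gave 19075 features, 14936 of them named. Each mean was tested against 0, two-sided, with an intercept-only fit in limma 3.58.1 (R 4.3.3), with 9.23 prior and 2 residual degrees of freedom, and Benjamini-Hochberg adjustment over all features. Confidence intervals use the moderated variance. The script was tested on simulated data.

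The members, lists and tests were chosen with earlier results of these data known. Named were all *lbp* genes, per list the 2 called genes farthest from 0 with the same sign on all arrays, the partners of *lbp-8*, the nearest measured chromosomal neighbours, and the 3 genes closest to the highest and lowest member. For lists where both of those called genes were negative, the highest gene was added after the values were seen, and for yolk also *vit-5* and *vit-6*. The 17 alternatives covered centring, scaling, missing values, the test, the place on the array and leaving out each prep. Each array has its own date in its title, so date and prep cannot be told apart. Figures were drawn with matplotlib 3.10.9.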

Additional observations from a re-analysis of the deposited data

How the results depend on the processing

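Under 17 alternatives the signs of *lbp-1*, *lbp-2*, *lbp-3*, *lbp-5*, *lbp-6*, *lbp-7* and *lbp-8* were kept, and *lbp-4* turned to -0.0115 without prep 1, within a range of -0.0115 to 0.4261 as each prep was left out. *lbp-7* passed under all 17, and *lbp-3*, *lbp-4* and *lbp-8* under none. With a minimum of 1 log2 unit (treat) 1 *lbp* gene was positive and 0 negative in limma, against 308 positive and 438 negative over all features and 12 and 7 over the lipid lists. This test asks for larger ratios by its construction. With arrays centred on the mode of their values, 1650 features were positive and 1631 negative, 14 lipid genes were negative, and *lbp-5* missed the threshold (0.97, limma adjusted p = 0.05519); the cause was not tested. When each prep was left out in turn, the negative *lbp* genes numbered 1 to 2, the positive ones 2 to 3, the family median ran from 0.1002 to 0.4756, and the negative lipid genes numbered 13 to 20. Those fits hold fewer arrays. *nhr-49*, which was not called, turned to 0.0268 when centred within sectors and to 0.0502 on the local median, and *ant-1.2*, not called either, ran from -0.031 to 0.6181 as each prep was left out. No paired analysis was possible because the arrays form 1 group.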

Other observations

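Some genes close to the *lbp* groups had larger ratios than any *lbp* gene, and they are named here after their values were seen. Next but one to *lbp-8* on chromosome V, *cyp-35C1*, a cytochrome P450 gene, gave 3.79, 3.33 and 3.11 in preps 1, 2 and 3. Its mean of 3.41 ± 0.35 was a 10.6-fold difference (limma, adjusted p = 7.241e-07), while *sptl-3*, which lies between them, was at -0.24 ± 0.12 and did not pass (limma, adjusted p = 0.3924). Near *lbp-3* on chromosome X, the infection response gene *irg-7* was at 2.69 ± 0.48 (limma, adjusted p = 5.555e-06) and *hrg-11.2*, listed next to it among the measured genes, at 2.97 ± 0.52 (limma, adjusted p = 3.474e-06). The negative ratios of *lbp-1* and *lbp-2* thus lay a few genes from positive ones of larger size, all 3 preps of each gene on its own side of 0.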
